A study of Mus musculus with 4 samples.

Results

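Collagens are the triple-helical proteins of the extracellular matrix, and each is built from chains encoded by genes named by type and chain. The genes described here are the 43 rows of the 23420 in the count table whose names have the form of a collagen chain, leaving out Col17a1, a collagen of the hemidesmosome. They cover 26 types, from type I to type XXVIII. Their RNA was measured by sequencing in 2 mouse keratinocyte lines, MK2 and MK1, with 2 replicates per line. Keratinocytes make up most of the epidermis, and the series concerns regulation by p63, a transcription factor that stratified epithelia such as the epidermis need. The labels name no treatment, genetic change, strain, age or origin for either line and do not say what separates the replicates, here called cultures. Each line stands for itself alone, and p-values measure the spread between these samples, which may be technical.

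In skin, keratinocytes and fibroblasts share the making of the matrix at their border. Type IV chains form the sheet of the basement membrane, type XVIII is a heparan sulfate proteoglycan within it, and type VII forms the anchoring fibrils that tie it to the dermis. The fibrillar types I, III and V of the dermis, and most type VI microfibrils, are made mainly by fibroblasts.

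Libraries held 25237391 to 30261111 counts. Levels are given as CPM, read counts per 1e6 counts of the scaled library, and genes are compared with each other only as TPM, which also divides by gene length. Both lines carried the keratinocyte keratins Krt5 and Krt14 at 7023 to 9179 CPM in every library. A library without a count for a gene had a level of at most 3 counts, 0.0987 to 0.119 CPM.

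In MK2 most collagen transcripts were type IV chains, and in MK1 most were Col18a1. All collagen chain genes together took 0.282% and 0.297% of counts in MK2 and 0.323% and 0.341% in MK1. Their summed level was 2827 and 2992 CPM in MK2, against 3216 and 3392 CPM in MK1, a log2 difference of -0.18 with no test. In MK2 the basement membrane chains of type IV made up 68.1% and 62.9% of the summed collagen TPM, against 26.1% and 24.8% in MK1. Col18a1 alone made up 18.3% and 21.9% in MK2, against 57.1% and 56.8% in MK1. Left out of the sum, a choice made after the data had been seen, it turned the log2 difference to 0.61. The share of Col7a1 was 9.67% and 10.6% in MK2 and 11.3% and 12.2% in MK1.

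**Figure D1:**
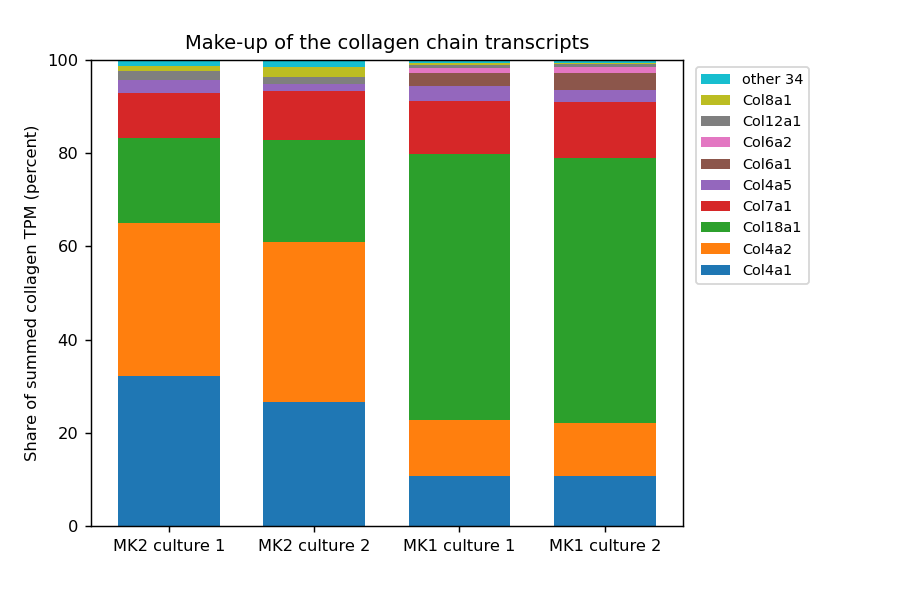
Share of the summed collagen TPM (percent, vertical axis) taken by 9 collagen chain genes and by the other 34 together in each culture. Col4a1 and Col4a2 fill most of both MK2 bars, and Col18a1 fills 57.1% and 56.8% of the MK1 bars.

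Of the 43 genes, 20 had enough counts to be tested. Of these, Col5a1, Col5a2 and Col19a1 had fewer than 10 counts in both MK1 libraries, and Col6a2 and Col11a1 in both MK2 libraries. These 5 passed the count filter through 1 line alone, so they had to differ, and their tests carry no weight as support. At an adjusted p under 0.05 in edgeR's quasi-likelihood test, 10 were higher in MK2, 9 were lower and 1 was not called. Of all 12479 tested genes, 25.9% were called higher and 28.6% lower, together 54.6%. Against a change of 2-fold, glmTreat called 5 collagen chain genes higher and 6 lower, where it called 3.25% and 10.1% of all tested genes. Among the 15 genes with 10 counts in at least 1 library of each line, it called 2 higher and 4 lower. Of the lower genes, Col6a1 and Col27a1 reached 10 counts in only 1 MK2 library. Their place in the test thus also rested on MK1, and this subset is not free of the filter's effect. With MK1 replicate 1 or MK1 replicate 2 left out, the other calls of higher genes beyond 2-fold ended. That of Col5a2 stayed, but Col5a2 is 1 of the 5 genes that had to differ. Levels did not overlap between the lines for 19 of the 20 genes, and for 80.5% of all tested genes.

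**Figure D2:**
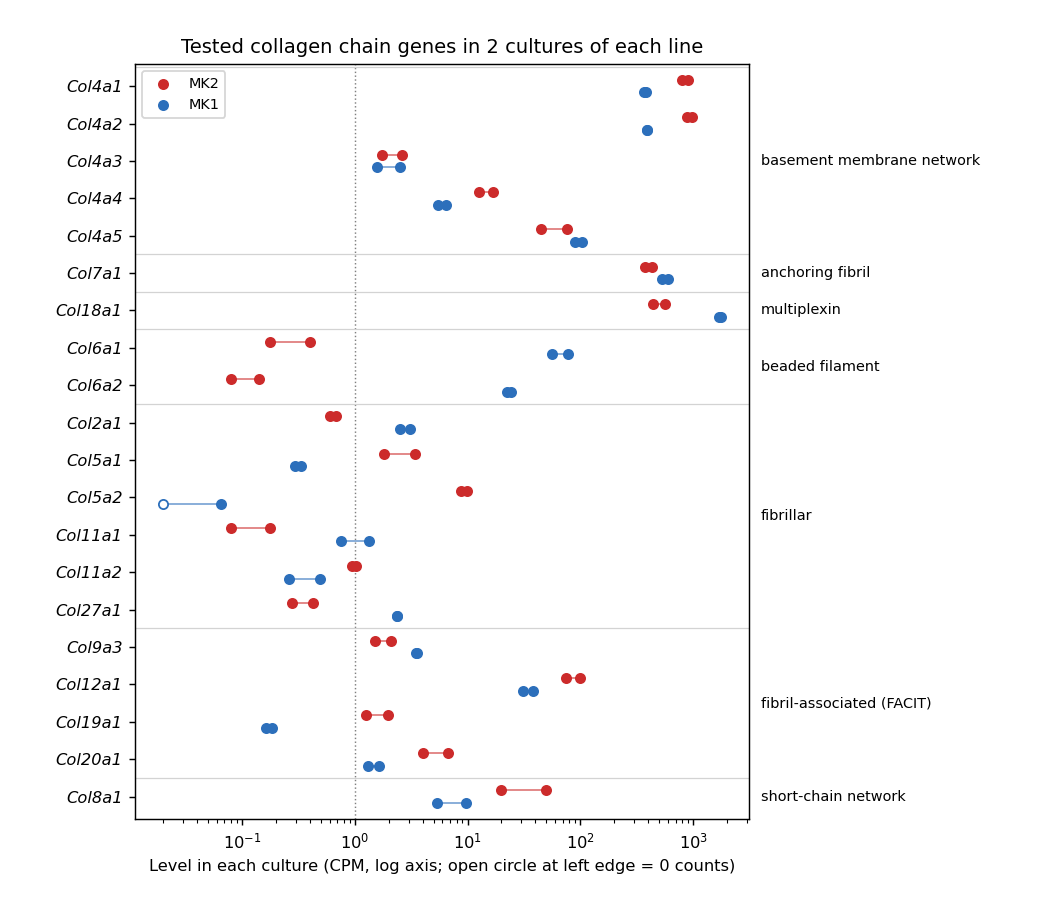
Level in each culture (CPM, log axis) of the 20 tested collagen chain genes, MK2 above MK1 in each row, with the classes at the right. An open circle stands for 0 counts, and the dotted line marks 1 CPM. Only the 4 points of Col4a3 overlap between the lines.

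The pair Col4a1 and Col4a2, whose chains assemble with each other into the common type IV trimer, and the pair Col6a1 and Col6a2, which contribute to 1 type VI trimer, each changed in 1 direction. Their promoter windows are shown because the first pair is divided by only 2 bases in the deposited annotation and points in opposite directions, whereas the second lies 85.4 kb apart on 1 strand. That of Col4a4 is shown as the contrast, since it lies head to head with Col4a3 at a distance of 71 bases and Col4a4 alone of that pair was called. Each window runs from 250 bases before to 50 after the RefSeq start (GRCm38.p6, the same assembly as mm10), 5′ to 3′ on the gene's strand. The RefSeq start of Col4a2 lies 24 bases from its deposited start, within the deposited span of Col4a1. Capitals mark matches, on either strand, to the GC box GGGCGG or the CCAAT box CCAAT. The TATA box TATAAA was also searched.
Col4a1 (chr8:11312777-11313076, minus strand): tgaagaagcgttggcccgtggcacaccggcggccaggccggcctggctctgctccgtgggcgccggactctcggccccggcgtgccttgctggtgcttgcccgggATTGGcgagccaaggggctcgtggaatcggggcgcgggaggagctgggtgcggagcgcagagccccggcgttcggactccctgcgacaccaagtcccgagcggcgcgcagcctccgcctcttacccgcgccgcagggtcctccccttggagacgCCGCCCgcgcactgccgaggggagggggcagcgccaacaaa
Col4a2 (chr8:11312555-11312854, plus strand): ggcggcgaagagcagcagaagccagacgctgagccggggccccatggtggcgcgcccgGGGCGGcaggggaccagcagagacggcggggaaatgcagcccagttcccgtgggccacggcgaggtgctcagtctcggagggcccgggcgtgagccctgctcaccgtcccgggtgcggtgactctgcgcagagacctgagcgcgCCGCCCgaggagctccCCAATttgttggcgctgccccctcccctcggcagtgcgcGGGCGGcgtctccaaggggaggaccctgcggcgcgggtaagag
Col4a4 (chr1:82586800-82587099, minus strand): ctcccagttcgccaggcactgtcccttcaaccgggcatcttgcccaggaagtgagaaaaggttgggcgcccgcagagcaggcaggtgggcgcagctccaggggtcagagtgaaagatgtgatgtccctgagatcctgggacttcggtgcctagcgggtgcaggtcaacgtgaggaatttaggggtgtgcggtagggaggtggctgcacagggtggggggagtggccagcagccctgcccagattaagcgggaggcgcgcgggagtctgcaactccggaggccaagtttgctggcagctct
Col6a1 (chr10:76725995-76726294, minus strand): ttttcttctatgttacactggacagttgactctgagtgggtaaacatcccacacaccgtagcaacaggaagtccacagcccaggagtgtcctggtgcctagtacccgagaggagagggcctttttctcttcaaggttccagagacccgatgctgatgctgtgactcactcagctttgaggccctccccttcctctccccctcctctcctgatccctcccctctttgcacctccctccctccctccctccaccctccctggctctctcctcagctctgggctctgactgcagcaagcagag
Col6a2 (chr10:76623355-76623654, minus strand): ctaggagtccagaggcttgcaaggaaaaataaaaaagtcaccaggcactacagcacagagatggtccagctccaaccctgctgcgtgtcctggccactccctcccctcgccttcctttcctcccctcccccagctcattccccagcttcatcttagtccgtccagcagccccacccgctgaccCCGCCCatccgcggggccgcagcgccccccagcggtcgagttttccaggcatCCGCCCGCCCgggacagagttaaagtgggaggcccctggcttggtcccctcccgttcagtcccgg

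The windows of Col4a1 and Col4a2 share 78 bases, read from opposite strands, and 1 GC box lies in the shared stretch. Col4a1 had 1 match to the GC box and 1 to the CCAAT box, and Col4a2 had 3 and 1. Col6a2 had 3 matches to the GC box, 2 of which overlap each other, and no match was found in the windows of Col6a1 and Col4a4. The TATA box was matched in none of these 5 windows. Of 32851 RefSeq windows of the same length, 35.7% held the GC box 37.4% the CCAAT box and 13.6% the TATA box. G and C made up 74.0% of the Col4a1 window, 73.7% of Col4a2, 63.3% of Col4a4, 57.3% of Col6a1 and 64.3% of Col6a2, where the median of all windows was 52.7%. RefSeq windows were found for 34 of the 43 genes.

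The chains of the basement membrane sheet, Col4a1 and Col4a2, were the most abundant collagen transcripts of MK2 by TPM and both rose. Col4a1 (chromosome 8, 11198423 to 11312826, mm10, as for all positions) stood at 896 and 789 CPM in MK2, against 365 and 379 CPM in MK1. Col4a2 (chromosome 8, 11312829 to 11449287) stood at 881 and 987 CPM in MK2, against 389 and 392 CPM in MK1. Both MK2 cultures were above both MK1 cultures for either gene. Col4a1 rose by 1.18 ± 0.11 (SE) on the log2 scale and Col4a2 by 1.26 ± 0.11, with adjusted p of 3.06e-04 and 2.18e-04 in edgeR's quasi-likelihood test. The ratio of Col4a1 to Col4a2 TPM was 0.987 and 0.777 in MK2 and 0.910 and 0.938 in MK1. Beyond 2-fold, Col4a2 was called at an adjusted p of 0.0474 and Col4a1 was not (0.140), and the call for Col4a2 depended on the processing. It held with DESeq2's size factors in the edgeR fit (0.0492), in the fit with crossed replicate numbers (0.0373) and without MK2 replicate 1 (0.0153), and ended in the other 9 alternatives, with adjusted p from 0.0502 to 0.360.

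The other type IV chains, which form a more restricted set of trimers best known from kidney, eye and some epithelial basement membranes, did not follow 1 direction. Of all 6 type IV genes, 3 rose, 1 fell, 1 was not called and 1 could not be tested. Over all tested genes, 25.9% were called higher and 28.6% lower. Col4a4 (chromosome 1, 82450723 to 82586849) stood at 12.6 and 16.9 CPM in MK2, against 6.48 and 5.47 CPM in MK1, without overlap, and rose by 1.30 ± 0.20 (adjusted p = 0.00220). Its head-to-head neighbour Col4a3 stood at 1.75 and 2.65 CPM in MK2 and 1.58 and 2.53 CPM in MK1, so that the lines overlapped (log2 change 0.11 ± 0.34, adjusted p = 0.805). Per length, Col4a4 exceeded Col4a3 by 7.92 and 7.03 times in MK2 and by 4.53 and 2.38 times in MK1, and the difference between the responses of the pair was not tested. Exons of Col4a3 overlap those of C430014B12Rik, on the other strand in GENCODE M21, over 563 bases, and the counts do not separate strands.

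Col4a5 (chromosome X, 141475419 to 141689235), whose chain pairs in skin with that of Col4a6, stood at 76.2 and 44.6 CPM in MK2, against 104 and 89.7 CPM in MK1. The lines did not overlap, although the MK2 cultures lay well apart, and the log2 change was -0.68 ± 0.24 (adjusted p = 0.0465). That call ended without MK1 replicate 1 (adjusted p = 0.224), MK1 replicate 2 (0.113) or MK2 replicate 2 (0.0649). Col4a6, the head-to-head neighbour of Col4a5 with 1342 bases between, had 2 and 3 counts in MK2 and 8 and 18 counts in MK1, too few for the main test.

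Col18a1, which carries the antiangiogenic endostatin fragment at its end, was the most abundant collagen transcript of MK1 by TPM and fell in MK2. It stood at 444 and 568 CPM in MK2, against 1685 and 1765 CPM in MK1 (chromosome 10, 77052179 to 77166530). The lowest MK1 culture was well above the highest MK2 culture. The log2 change was -1.77 ± 0.14 (adjusted p = 1.68e-04), and the change was also called beyond 2-fold (adjusted p = 0.00202). Col7a1, the anchoring fibril chain (chromosome 9, 108953745 to 108984875), stood at 373 and 435 CPM in MK2, against 532 and 600.3 CPM in MK1. It was lower in both MK2 cultures (log2 change -0.49 ± 0.12, adjusted p = 0.0155), and that call ended without MK1 replicate 1 (0.0548) or MK1 replicate 2 (0.122). Col15a1, the other multiplexin and a relative of Col18a1, had 1 and 2 counts in MK2 and 0 in MK1.

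The largest falls among the tested collagen chain genes were those of the type VI pair, whose products form beaded microfibrils together with a further chain. Col6a1 (chromosome 10, 76708792 to 76726044) had 10 and 5 counts in MK2, or 0.397 and 0.176 CPM, against 56.0 and 77.5 CPM in MK1. Col6a2 (chromosome 10, 76595756 to 76623404) had 2 and 4 counts in MK2, or 0.0795 and 0.141 CPM, against 22.4 and 24.4 CPM in MK1. Both transcripts were thus plainly present in each MK1 culture and near the limit of detection in each MK2 culture. On counts pooled over the cultures, Col6a1 was 236 times lower in MK2 (95% counting interval 143 to 422) and Col6a2 208 times lower (95.5 to 569). The fitted log2 changes were -7.87 ± 0.32 and -7.65 ± 0.27 (adjusted p = 1.35e-05 and 8.08e-06), that of Col6a1 being -8.53 without MK2 replicate 1. Col6a2 passed the count filter through MK1 alone, and Col6a1 reached 10 counts in only 1 MK2 library. The further chain that classical type VI trimers need, Col6a3, had 0 counts in MK2 and 2 and 0 counts in MK1. Its alternatives Col6a4 and Col6a5 had 1 count each in MK1 and 0 in MK2, and Col6a6 had 0 counts in every library.

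**Figure D3:**
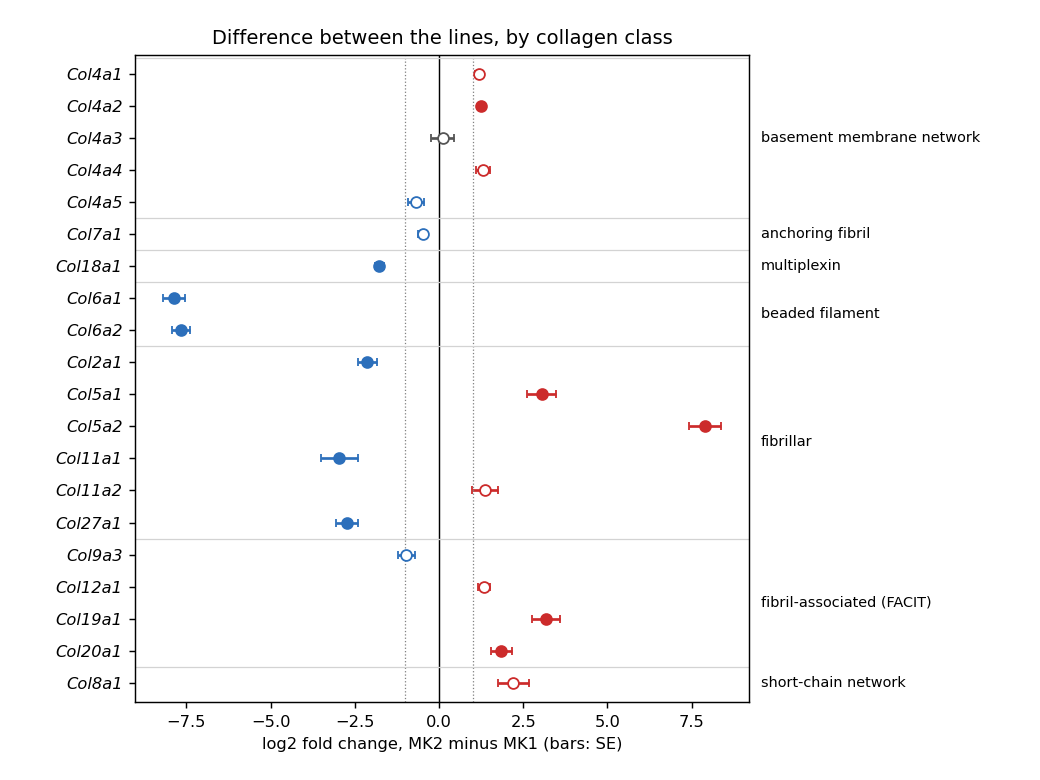
Fitted log2 fold change, MK2 minus MK1 (horizontal axis, bars for the standard error), of the 20 tested collagen chain genes by class. Red genes were called higher and blue genes lower, filled circles also beyond 2-fold by glmTreat, the grey circle (Col4a3) was not called, and dotted lines mark a log2 change of 1 in either direction. The type VI pair lies near -7.87 and -7.65 and Col5a2 near 7.89.

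Markers of mesenchymal cells moved in part with the type VI pair. The 12 listed fibroblast and mesenchymal markers summed to 19.9 and 16.5 CPM in MK2 and 62.7 and 78.8 CPM in MK1. Of the 6 that could be tested, 4 fell, 1 (S100a4) rose and 1 was not called, where 28.6% of all tested genes were called lower. Pdgfra, a receptor of fibroblasts, stood at 0.318 and 0.988 CPM in MK2, against 3.22 and 2.53 CPM in MK1, and the matrix gene Fbln1 at 12.9 and 10.3 CPM in MK2, against 25.1 and 33.0 CPM in MK1. Twist2, which passed the count filter through MK1 alone, had 0 counts in MK2 and 31 counts in each MK1 library. Its relative Twist1, a mesenchymal transcription factor, stood at 1.23 and 1.20 CPM in MK2, against 32.1 and 40.6 CPM in MK1. Of the other listed markers, Pdgfrb, Dcn, Lum and Dpt had 0 counts in every library, and Vim stayed between 0.353 and 0.633 CPM. Thy1 had 0 counts in MK2 and 2 and 0 in MK1, and Prrx1 had 1 and 3 counts in MK2 and 4 and 0 in MK1. Of 9 leukocyte markers, 8 fell, with sums of 0.477 and 0.106 CPM in MK2 and 33.9 and 32.5 CPM in MK1. Each of these 8 had fewer than 10 counts in both MK2 libraries. Only their MK1 counts let them be tested, which left a fall as the only possible call. Those 8 calls carry no weight as support. The part of either marker group in the collagen differences was not tested, and in such bulk samples fewer cells of a type cannot be told apart from less RNA per cell.

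Chains of the major fibrillar collagens were at or near 0 counts in both lines. Of all 11 fibrillar chain genes 3 rose, 3 fell and 5 could not be tested, where 54.6% of all tested genes were called. Col5a1, Col5a2 and Col11a1, among those called, passed the count filter through 1 line alone. Col1a1, a chain of the main dermal collagen, had 7 and 2 counts in MK2 and 4 and 3 in MK1, and its partner Col1a2 had 1 and 0 counts in MK2 and 0 in MK1. Col3a1, the chain of the fine reticular fibrils, had 0 counts in MK2 and 3 and 2 in MK1. The fibrillar genes that passed the test belong to minor or cartilage types.

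The main chains of type V, which starts type I fibrils and limits their width, were higher in MK2. Both genes passed the count filter through MK2 alone. Col5a2 (chromosome 1, 45374331 to 45503282) stood at 9.93 and 8.75 CPM in MK2, against 0.0658 and 0 CPM in MK1, where both libraries together held 2 counts. The cultures of a line were close together and the lines far apart, with a count ratio of 266 (95% counting interval 73.3 to 2205) and a fitted log2 change of 7.89 ± 0.48 (adjusted p = 5.74e-05). That size rests on 2 counts in MK1, and it was 10.97 without MK1 replicate 1 and 7.05 without MK1 replicate 2. Its partner Col5a1 (chromosome 2, 27886425 to 28039510) stood at 3.46 and 1.83 CPM in MK2, against 0.296 and 0.335 CPM in MK1, a rise of 3.05 ± 0.43 (adjusted p = 0.00149). Exons of Col5a1 overlap those of 2810430I11Rik and Gm13372, on the other strand in GENCODE M21, over 99 and 113 bases. Per length, Col5a2 exceeded Col5a1 by 3.65 and 6.06 times in MK2. The third type V chain, Col5a3, had 0 and 3 counts in MK2 and 1 and 0 in MK1. Col3a1, with the counts given above, lies tail to tail with Col5a2 at a distance of 24.6 kb.

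The chains of cartilage-type fibrils were at most a few CPM, and 3 of the 4 tested were lower in MK2, where 28.6% of all tested genes were called lower. Of these 3, Col11a1 had 2 and 5 counts in MK2 and entered the test on its MK1 counts only. Its call was fixed in advance by the filter and carries no weight as support. Col27a1 had 7 and 12 counts in MK2, and its entry leaned on MK1 as well. Col11a1 (chromosome 3, 114030540 to 114220326), a chain of the minor cartilage fibril collagen that can also join type V chains, stood at 0.0795 and 0.176 CPM in MK2, against 0.757 and 1.34 CPM in MK1 (log2 change -2.95 ± 0.54, adjusted p = 0.00414, and -3.64 without MK2 replicate 2). Col2a1 (chromosome 15, 97975602 to 98004724), the main cartilage collagen, stood at 0.675 and 0.600 CPM in MK2, against 3.09 and 2.50 CPM in MK1 (log2 change -2.13 ± 0.29, adjusted p = 0.00121). Col27a1 (chromosome 4, 63215412 to 63334990), a fibrillar chain of cartilage and developing tissues, stood at 0.278 and 0.423 CPM in MK2, against 2.37 and 2.38 CPM in MK1 (log2 change -2.73 ± 0.32, adjusted p = 7.34e-04). In all of these the 2 lines did not overlap, as was so for 80.5% of all tested genes. The 6 listed chondrocyte and osteoblast markers summed to 51.5 and 56.9 CPM in MK2 and 61.5 and 42.3 CPM in MK1, and neither of the 2 that could be tested was called. Acan, Sp7 and Ibsp had 0 counts in every library. Col11a2, the partner of Col11a1, went the other way at 1.03 and 0.952 CPM in MK2, against 0.493 and 0.261 CPM in MK1. Its log2 change of 1.37 ± 0.39 (adjusted p = 0.0235) was not called in DESeq2 (0.156) or without MK1 replicate 2 (0.144) or MK2 replicate 1 (0.0502).

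The fibril-associated collagens, which decorate the surface of other fibrils, are represented by 9 genes, of which 3 rose, 1 fell and 5 could not be tested. The shares over all tested genes were 25.9% higher and 28.6% lower. Col12a1 (chromosome 9, 79598991 to 79718678), found in skin and other tissues under tension, stood at 99.1 and 74.6 CPM in MK2, against 31.3 and 37.8 CPM in MK1. It had the highest TPM of the class in every culture and rose by 1.33 ± 0.17 (adjusted p = 9.64e-04). Col20a1 (chromosome 2, 180986535 to 181017540) stood at 4.01 and 6.67 CPM in MK2, against 1.64 and 1.30 CPM in MK1, a rise of 1.85 ± 0.32 (adjusted p = 0.00302). Its exons overlap those of BX649560.1, on the same strand in GENCODE M21, over 79 bases. Col19a1 (chromosome 1, 24257683 to 24587437) stood at 1.99 and 1.27 CPM in MK2, against 0.164 and 0.186 CPM in MK1, a rise of 3.18 ± 0.42 (adjusted p = 0.00115), and it is another gene that passed the count filter through MK2 alone.

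The member of this class that fell was Col9a3, a chain of the type IX collagen of cartilage (chromosome 2, 180598222 to 180622185). It stood at 1.51 and 2.08 CPM in MK2, against 3.52 and 3.54 CPM in MK1, without overlap (log2 change -0.97 ± 0.25, adjusted p = 0.0159). The call ended without MK1 replicate 1 (0.0917), MK1 replicate 2 (0.0858) or MK2 replicate 1 (0.0576). Exons of Col9a3 overlap those of Tcfl5 on the other strand over 229 bases. Its partner chains were not detectable or nearly so, with 0 counts of Col9a1 in every library and 1 count of Col9a2, in MK1. The short-chain collagen Col8a1 (chromosome 16, 57624256 to 57754737), best known from vessels and the cornea, was the 1 of 3 in its class that could be tested and stood at 19.6 and 49.9 CPM in MK2, against 9.64 and 5.36 CPM in MK1. Its cultures were uneven within both lines, and its rise of 2.21 ± 0.46 (adjusted p = 0.00712) was no longer called without MK1 replicate 2 (0.0654). Without MK2 replicate 2 the rise was 1.38 and still called.

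The 23 genes without enough counts for the test reached at most 18 counts in any library, or 0.670 CPM. Among them, Col6a6, Col9a1, Col16a1, Col25a1, Col26a1 and Col28a1 had 0 counts in all 4 libraries. Each of the 3 transmembrane collagens, Col13a1, Col23a1 and Col25a1, belonged to these untested genes, with at most 7 counts in a library.

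Neighbouring genes on the chromosome were set beside the collagen genes, as a description. The 26 other tested genes within 1 Mb of Col6a1 had a median log2 change of -0.41, with 14 lower and 2 higher and chromosome 10 as a whole had a median of -0.33. Of all tested genes, 28.6% were called lower and 25.9% higher. Among the lower neighbours, Gstt2 had 0 counts in MK2 and averaged 1.38 CPM in MK1, so it passed the count filter through MK1 alone. Pcbp3, which lies beside Col6a1, had a log2 change of 0.22 and was not called. Slc19a1, between Pcbp3 and Col18a1, rose by 0.89. Col6a1, Col6a2 and Col18a1 thus lay well below the median of their surroundings, and the tested genes between Col6a1 and Col18a1 were not lower. On the other side, the tested genes nearest to Col6a2 were lower. These were 4930483K19Rik, with a log2 change of -2.61, and Lss, with -2.03, both larger falls than the -1.77 of Col18a1. Around Col4a1, 7 genes had a median of 0.36, and around Col5a2 the 2 testable genes had log2 changes of 0.85 (Wdr75) and -2.03 (Slc40a1).

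At the far end of chromosome 2, Col9a3 and Col20a1 lay in a stretch that was lower in MK2. Of 38 other tested genes within 1 Mb of Col9a3, 31 fell and none rose, with a median log2 change of -1.06 beside the -0.97 of Col9a3. Of 40 around Col20a1, 29 fell and 2 rose, with a median of -1.03, whereas Col20a1 itself rose by 1.85. Over all tested genes, 28.6% were called lower and 25.9% higher. Bhlhe23, among the lower neighbours, had 0 counts in MK2 and passed the count filter through MK1 alone. The median over the 979 tested genes of chromosome 2 was 0.36.

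**Figure D4:**
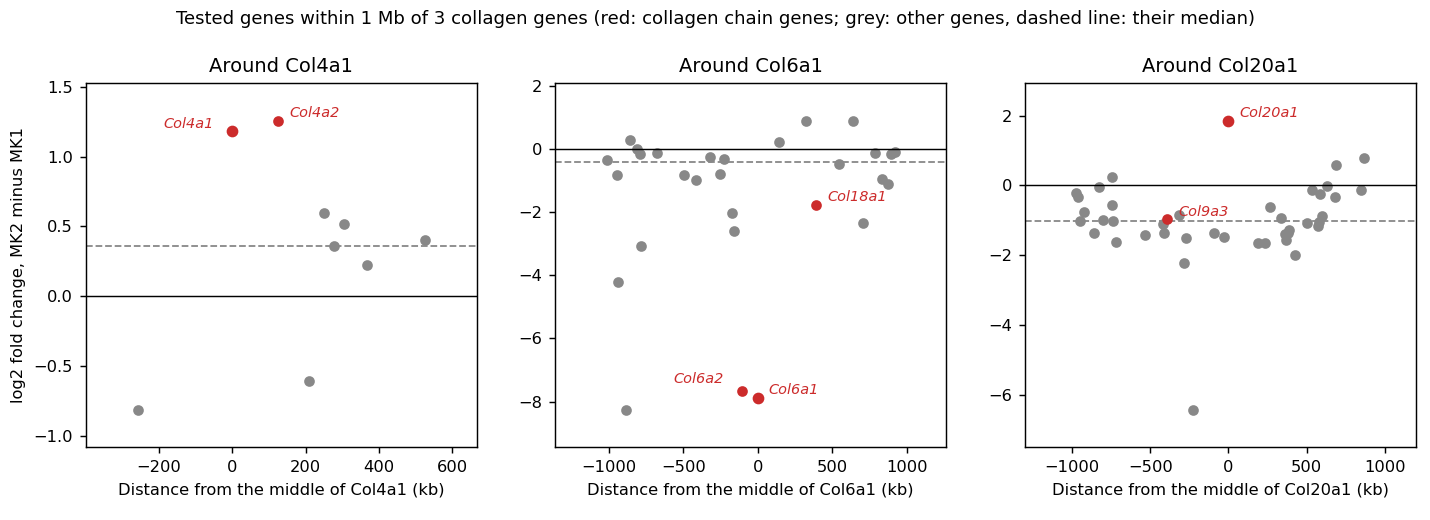
Log2 fold change, MK2 minus MK1 (vertical axis, scaled separately in each panel), of tested genes by distance from the middle of Col4a1, Col6a1 and Col20a1 (kb). Red points are collagen chain genes, grey points other genes, and the dashed line is the median of the grey points. Col20a1 lies at 1.85 above neighbours with a median of -1.03, and Col9a3 lies among them.

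Of 20 listed genes that hydroxylate, fold and carry collagen chains in the endoplasmic reticulum, 18 were tested, 2 rose, 7 fell and 9 were not called. Of all tested genes 54.6% were called, a share near that of the list, which had a median log2 change of -0.06 where that of all tested genes was -0.01. Fkbp10, a prolyl isomerase that assists collagen folding and crosslinking, stood at 0.914 and 0.705 CPM in MK2, against 57.3 and 58.7 CPM in MK1 (log2 change -6.16, adjusted p = 5.60e-06). Serpinh1, the collagen chaperone HSP47, stood at 197 and 252 CPM in MK2, against 416 and 438 CPM in MK1. Its log2 change was -0.93 (adjusted p = 0.00183), and P4ha2, a catalytic subunit of prolyl hydroxylase, and Fkbp14 had log2 changes of -1.37 and -1.34. Picked with their values already known, P4hb, the other prolyl hydroxylase subunit, rose by 0.55 and Tmem38b by 0.67. Neither was called without MK1 replicate 1 (adjusted p = 0.0885 and 0.139) or MK1 replicate 2 (0.0711 and 0.0906), nor Tmem38b without MK2 replicate 1 (0.0816).

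Of 15 listed genes of collagen processing and crosslinking outside the cell, 10 were tested, 2 rose, 3 fell and 5 were not called, again near the 54.6% called over all tested genes. Pxdn, the peroxidase that crosslinks the type IV sheet, stood at 0.0397 and 0.0353 CPM in MK2, against 145 and 114 CPM in MK1 (log2 change -11.59, adjusted p = 4.46e-06), a direction opposite to that of Col4a1 and Col4a2. Its MK2 libraries held 1 count each, so it passed the count filter through MK1 alone and its test carries no weight as support. Lox, which crosslinks fibrils through lysines, stood at 2.62 and 2.65 CPM in MK2, against 0.164 and 0.0745 CPM in MK1 (log2 change 4.38, adjusted p = 2.51e-04, and 5.06 without MK1 replicate 1), and its relative Loxl2 rose by 1.09 (adjusted p = 0.00742, and 0.0738 without MK1 replicate 1). Pcolce, an enhancer of procollagen cleavage, had a log2 change of -2.56. Lox had 5 and 2 counts in MK1, and Pcolce had 5 and 7 in MK2. Loxl3, also called lower, had 4 and 6 counts in MK2. These genes too passed the count filter through 1 line alone, so their calls carry no weight as support.

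Of 10 listed collagen receptors, 4 were tested, 2 rose and 2 fell, where 25.9% of all tested genes were called higher and 28.6% lower. Itga2, the collagen-binding integrin subunit of keratinocytes, stood at 2.34 and 8.22 CPM in MK2, against 0.132 and 0.112 CPM in MK1 (log2 change 5.39, adjusted p = 0.00170), with MK2 cultures well apart. Itga2 had 4 and 3 counts in MK1, so it passed the count filter through MK2 alone and its test carries no weight as support. Its log2 change was 6.02 without MK2 replicate 1 and 4.21 without MK2 replicate 2, and its partner Itgb1 rose by 1.03. Ddr1, a collagen receptor kinase, and Itga10 had log2 changes of -0.52 and -1.004, which were not called without MK1 replicate 1 (adjusted p = 0.0960 and 0.0549). Itga10 was not called without MK1 replicate 2 (0.145) or MK2 replicate 2 (0.0594) either. Of 13 matrix partners, 10 had too few counts for the test, and the 3 tested rose, where 25.9% of all tested genes were called higher. Fn1, which encodes fibronectin, stood at 191 and 173 CPM in MK2, against 54.6 and 36.7 CPM in MK1 (log2 change 1.99, adjusted p = 3.29e-04), Tgfbi rose by 4.04 (3.44 without MK2 replicate 1) and Thbs1 by 1.36, the last not called without MK1 replicate 2 (adjusted p = 0.0636).

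**Figure D5:**
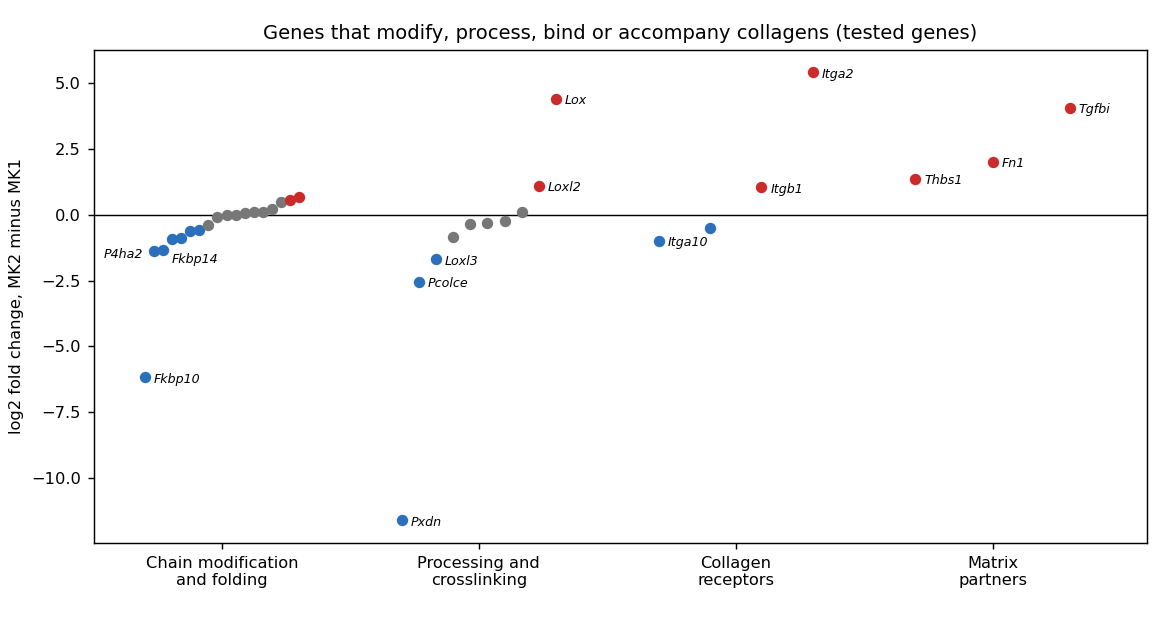
Log2 fold change, MK2 minus MK1 (vertical axis), of the tested genes in 4 lists of collagen-related genes. Red points were called higher, blue points lower and grey points not called, and called genes with a log2 change beyond 1 are named. Pxdn lies lowest at -11.59 and Itga2 highest at 5.39.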

How the data were processed

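RNA sequencing counts came from 2 cultures each of the mouse keratinocyte lines MK2 and MK1. The authors deposited raw read counts per gene, which they had not normalised. Per the file headers, featureCounts 1.4.6-p4 assigned TopHat alignments to exons of the UCSC mm10 annotation and summed them by gene name, with no option for strand, read pairs or multiply aligned reads. The submitters' processing notes name featureCounts 1.5.0 instead, along with DESeq2 1.10.1, Bowtie2 2.2.6 and TopHat2 2.0.13. In the header's command the alignments of MK2 carry the name MKU, and columns were matched to samples by column name. All count columns had a sample (0 without) and no row lacked a name (0 rows).

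Genes were tested on the whole table of 23420 rows with edgeR 4.0.16 in R 4.3.3 after filterByExpr (minimum count 10), which left 12479 genes. Libraries were scaled by TMM. MK2 was compared with MK1 by the two-sided quasi-likelihood F test, and by glmTreat against a log2 fold change of 1, each with Benjamini-Hochberg adjustment over all tested genes at 0.05. The standard error of a log2 fold change is its size divided by the square root of the F statistic. CPM used TMM-scaled library sizes, and TPM the deposited exon lengths. The procedure was tested on simulated data. Counting intervals and floors (3 counts) cover counting error only.

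Members, lists and tests were chosen with earlier results of these data known. The members given by library are those averaging 1 CPM or more in a line, with chains that share a trimer or a promoter region with them. Each partner list gives up to 4 called genes with the largest changes, if their higher line averages at least 1 CPM. Of the 58 partner symbols and the markers, 6 needed a synonym to be matched and 0 had no row. The 2 cultures of a line differed by more than counting noise (median chi-square per gene 4.26 in MK2 and 2.88 in MK1), so none was a library deposited again. Alternatives covered scaling, count filters, DESeq2 1.42.0, a replicate block and each library left out in turn.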

Additional observations from a re-analysis of the deposited data

How the results depend on the processing

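The counts of collagen chain genes called higher and lower stayed within 1.5 times of the reported 10 and 9 under every alternative that could be fitted. With the replicate number as a block, which the labels do not tie to a shared culture day, they were 10 and 9, and the genes called beyond 2-fold were 3 higher and 6 lower. The deviations of same-numbered libraries were weakly and negatively correlated over genes (-0.16), and pairing each replicate with the other number, added after the data had been seen, gave 10 and 9, with 7 and 6 beyond 2-fold. DESeq2 called 2 higher and 3 lower beyond 2-fold. Leaving out 1 library at a time gave 1 to 7 genes higher beyond 2-fold, 0 to 2 modification genes higher, 1 to 2 processing genes higher and 2 to 5 lower, and 0 to 2 receptors lower. It gave 1565 to 3164 of all genes higher and 2239 to 3584 lower, the fewest of both without MK1 replicate 1. The summed collagen difference (log2 -0.18) was -0.24 with upper-quartile scaling, -0.22 to -0.14 with a library left out, and 0.61 without Col18a1. DESeq2 and the blocks gave no value for that sum. Col4a3, not called, changed sign without MK1 replicate 1 (-0.20) or MK2 replicate 2 (-0.23), with a range of -0.23 to 0.48 over the libraries left out. The cause of these shifts was not tested. With no count filter, 10 genes were lower, Col4a6 being the added one (adjusted p = 0.0236). Low counts limit the precision for genes under 1 CPM.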
